A study of Homo sapiens with 12 samples.

Results

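The 38 genes described here are interferon-stimulated genes, chosen by symbol as a module of antiviral effectors and their regulators. All 38 were listed in each of the 3 expression tables, which held 16489 gene names for HCC70, 18215 for MDA-MB468 treated with XY018 or ATV, and 55744 for MDA-MB468 treated with GSK805. RNA was sequenced from 12 cultures of 2 human triple-negative breast cancer lines, with 1 library per condition and 24 h of treatment. Each line was given vehicle, XY018 (a RORγ antagonist) at a dose of 1.25 μM or 2.5 μM, atorvastatin (ATV, a statin) at 1.25 μM, or the pair of them with XY018 at 1.25 μM. A second experiment, in MDA-MB468 alone and with a vehicle library of its own, used another RORγ antagonist, GSK805, at 2.5 μM. No interferon is named among the treatments.

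Type I and type III interferons bind cell surface receptors and signal through the kinases JAK1 and TYK2 to a complex that holds STAT2 and IRF9 and binds the interferon-stimulated response element (ISRE) in the promoters of these genes. Many members are also transcribed at a low level in unstimulated tumour cells, and a subset, among them IFIT2 and OASL, can be switched on directly by IRF family factors. RNA sensors such as DDX58 (RIG-I) and IFIH1 (MDA5) are members themselves and act at the top of the pathway that makes interferon. RORγ is a nuclear receptor, and XY018 and GSK805 both antagonise it.

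Promoter sequences from 250 bases before to 50 bases after the start of transcription were taken from RefSeq (GRCh38.p14) for 32 of the 38 genes. They were searched on both strands for an ISRE core, GAAA followed by any 2 bases and GAAA (on the other strand TTTC, any 2 bases and TTTC), and matches may overlap. It was found in 19 of the 32, or 59.4%, against 1255 of 35116 promoters in the table, or 3.57%. The match is a description of the letters and not of a bound site. The windows below hold 20 bases on either side of the match nearest the start of transcription. They are read 5′ to 3′ on the strand of the gene, and matches that lie wholly within a window are in capitals. Coordinates are GRCh37 positions of exact matches. The first 7 genes were lower in MDA-MB468 with XY018, IFIH1 was higher, and ISG15 stayed within 1.5-fold there.
MX1 (chr21:42792476-42792525, + strand): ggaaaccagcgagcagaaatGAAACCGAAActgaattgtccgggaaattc
BST2 (chr19:17516534-17516583, - strand): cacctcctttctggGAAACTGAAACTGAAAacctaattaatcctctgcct
OAS3 (chr12:113376247-113376296, + strand): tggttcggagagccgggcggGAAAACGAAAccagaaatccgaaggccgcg
IFI6 (chr1:27998767-27998816, - strand): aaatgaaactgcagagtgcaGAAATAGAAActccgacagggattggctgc
IFI27 (chr14:94576967-94577016, + strand): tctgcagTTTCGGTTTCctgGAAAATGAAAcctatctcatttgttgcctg
GBP1 (chr1:89530989-89531038, - strand): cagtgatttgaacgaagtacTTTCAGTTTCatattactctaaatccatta
SAMD9 (chr7:92747399-92747448, - strand): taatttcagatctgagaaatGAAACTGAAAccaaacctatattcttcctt
IFIH1 (chr2:163175186-163175235, - strand): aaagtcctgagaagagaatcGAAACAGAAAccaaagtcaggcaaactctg
ISG15 (chr1:948750-948799, + strand): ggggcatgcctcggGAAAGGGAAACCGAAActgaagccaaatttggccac
Of the genes at least 1.5-fold lower in all 3 MDA-MB468 libraries with XY018, 7 of the 10 with a promoter in the table held the core. Of those higher in 2 or 3 of the libraries, 2 of 3 held it, as did 10 of 19 of the remaining members. The windows of OAS1, PARP9 and IFI35, which were lower, and of IRF1, which was higher, did not hold these letters.

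In the vehicle libraries, most members were listed at a higher level in HCC70 than in MDA-MB468. The values are FPKM, that is, fragments scaled to transcript length and library size, so genes can be ranked by level. In the HCC70 vehicle library the median member stood at 14.2 FPKM, and 37 of 38 members reached 1 FPKM. In the MDA-MB468 vehicle libraries the medians were 7.74 FPKM in the XY018 and ATV experiment and 5.59 FPKM in the GSK805 experiment, with 35 and 31 members at 1 FPKM or above. The tables were normalized separately, so these levels set across them are a description only.

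The order of the members differed between the lines. In HCC70 the 4 most abundant were IFI27 at 239 FPKM, the virus-tethering membrane protein BST2 at 236 FPKM, the mitochondrial protein IFI6 at 107 FPKM and the ubiquitin-like modifier ISG15 at 106 FPKM. In MDA-MB468 (XY018 and ATV experiment) the first was UBE2L6, the enzyme that conjugates ISG15, at 104 FPKM, followed by BST2 at 68.4 FPKM, the antiviral GTPase MX1 at 40.3 FPKM and ISG15 at 40.2 FPKM. IFI27, at the top of the HCC70 order, stood at 1.18 and 1.13 FPKM in the MDA-MB468 vehicles. Of the 38 members, 32 were higher in HCC70, 6 of them by over 5-fold, not counting EPSTI1. The share of all genes higher in HCC70 was not taken, so these counts cannot be read as particular to the members. The members higher in MDA-MB468 included IRF7, at 20.9 against 3.74 FPKM, MX1 and UBE2L6. EPSTI1 was listed at 0 in both MDA-MB468 vehicles and never reached 1 FPKM in any library. The MDA-MB468 vehicles of the separate experiments stood within 2-fold of each other for 27 of 38 members. OASL was at 2.95 and 0.632 FPKM in them, OAS2 at 1.93 and 0.502 FPKM, and IRF1 at 14.3 and 34.6 FPKM. The share of all genes within 2-fold was not taken. Across these experiments, 49.7% of 12039 genes were at least 1.5-fold higher with GSK805 than in the XY018 and ATV vehicle, and 9.41% lower.

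**Figure D1:**
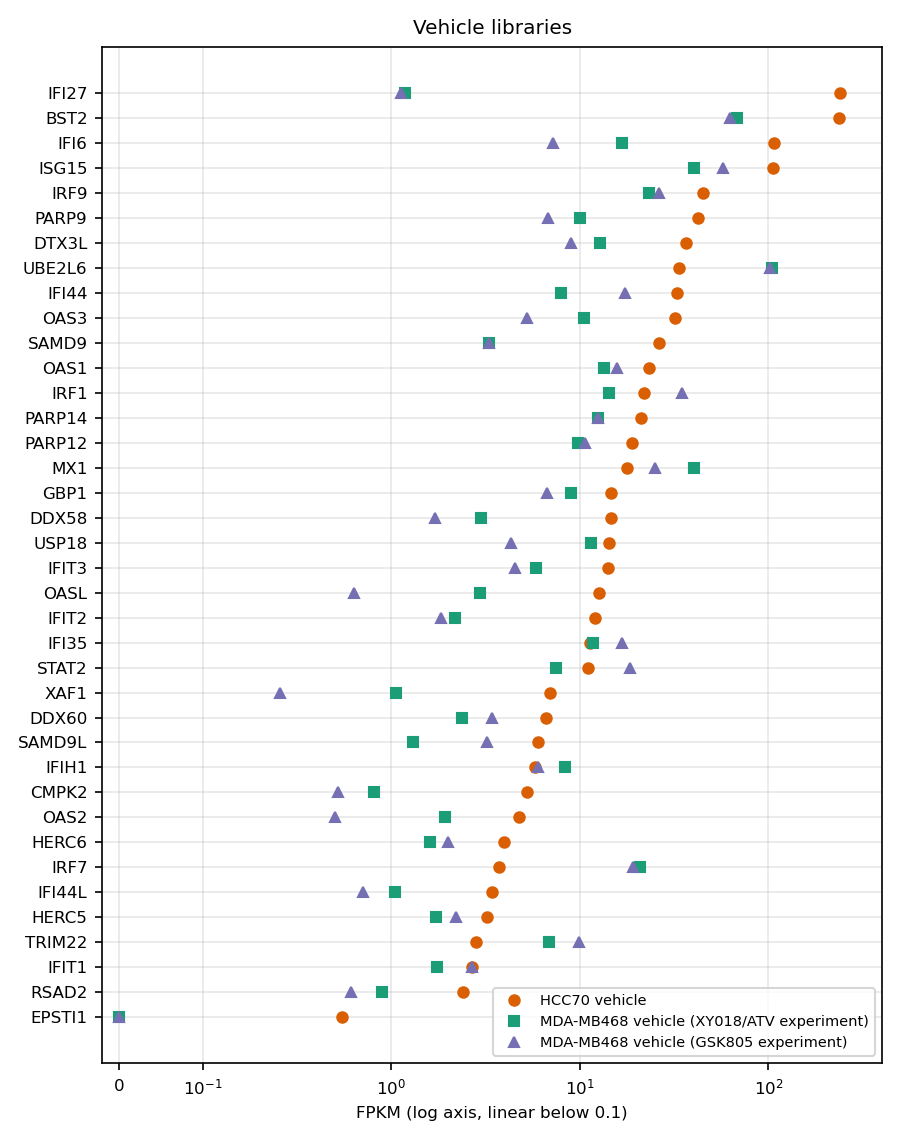
FPKM of the 38 members in the 3 vehicle libraries, on a log axis that is linear below 0.1, ordered by the level in HCC70 (circles). Most circles lie to the right of the MDA-MB468 squares (XY018 and ATV experiment) and triangles (GSK805 experiment), with the widest gap at IFI27, at 239 against 1.18 and 1.13 FPKM.

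Every treated library was set against the vehicle from the same experiment. Changes are log2 ratios computed after adding 0.1 FPKM to numerator and denominator, and members below 1 FPKM in both libraries were left out. A gene is called lower or higher at 1.5-fold or more. With 1 library per condition no test was run, and the spread between cultures is unknown. In bulk RNA, a lower level in every cell and fewer cells with the transcript cannot be told apart. The 95% intervals in parentheses are exact Clopper-Pearson intervals of the ratio without the added 0.1. They rest on fragments estimated from the FPKM values and cover counting error only.

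In MDA-MB468 with XY018 the share of members that were lower was above that of all genes, and the share that were higher was nearer to it. At 2.5 μM, 16 of the 36 members compared were lower and 7 higher, with a median log2 ratio of -0.44 (CMPK2 and EPSTI1 were under 1 FPKM in both libraries). Over all 11919 genes compared the median was 0.00, with 14.5% lower and 14.1% higher. At 1.25 μM, 16 of 35 members were lower and 2 higher (median -0.44), against 8.39% and 9.73% of 11844 genes. The lower members were mostly antiviral effectors and IFI proteins, and the higher ones were transcription factors, the sensor IFIH1, and IFIT2, OASL and HERC5. Since both doses and the combination share 1 vehicle library, they are not independent of each other.

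**Figure D2:**
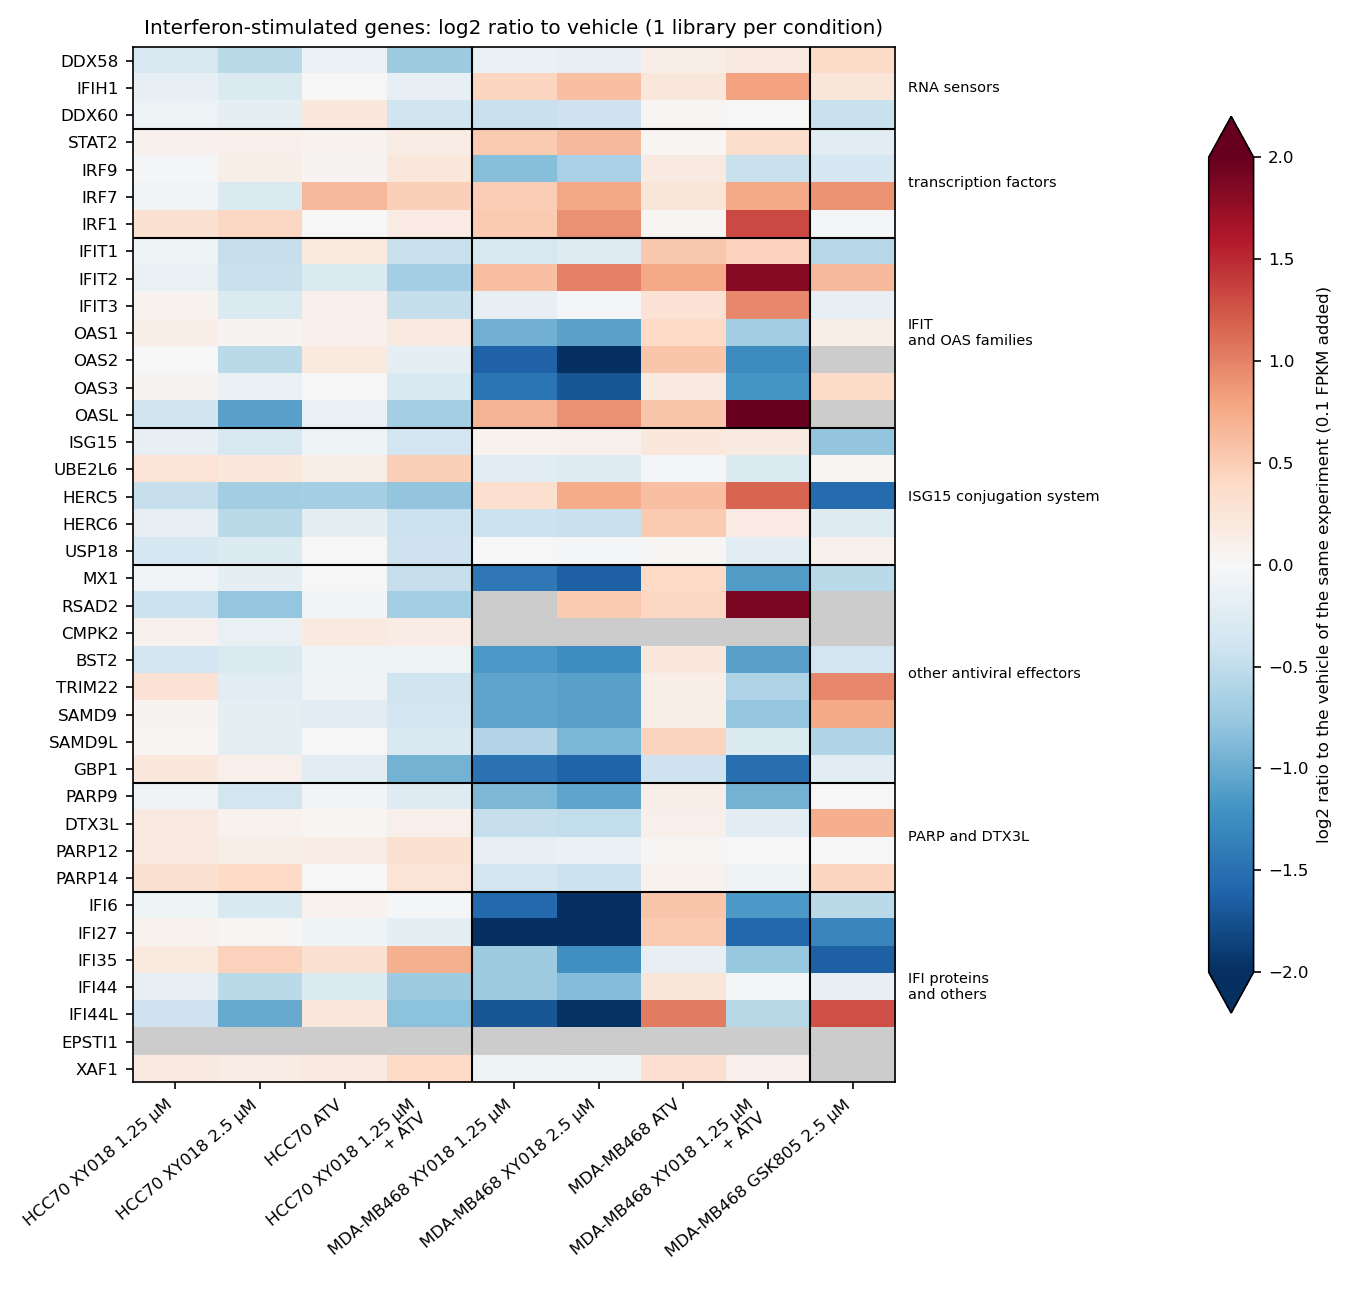
Log2 ratio to vehicle of each member (rows, grouped by role) in the 9 treated libraries (columns), blue for lower and red for higher, with colours ending at 2 in either direction. Grey cells are members under 1 FPKM in both libraries. The blue block of OAS, MX1, BST2, GBP1 and IFI6 in MDA-MB468 with XY018 is not seen in the ATV column of that line, apart from GBP1 (-0.41), and is paler or missing in the GSK805 column. With XY018 plus ATV, IFIT2, OASL and IRF1 are red in MDA-MB468, whereas IFIT2 and OASL are blue in HCC70.

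**Figure D3:**
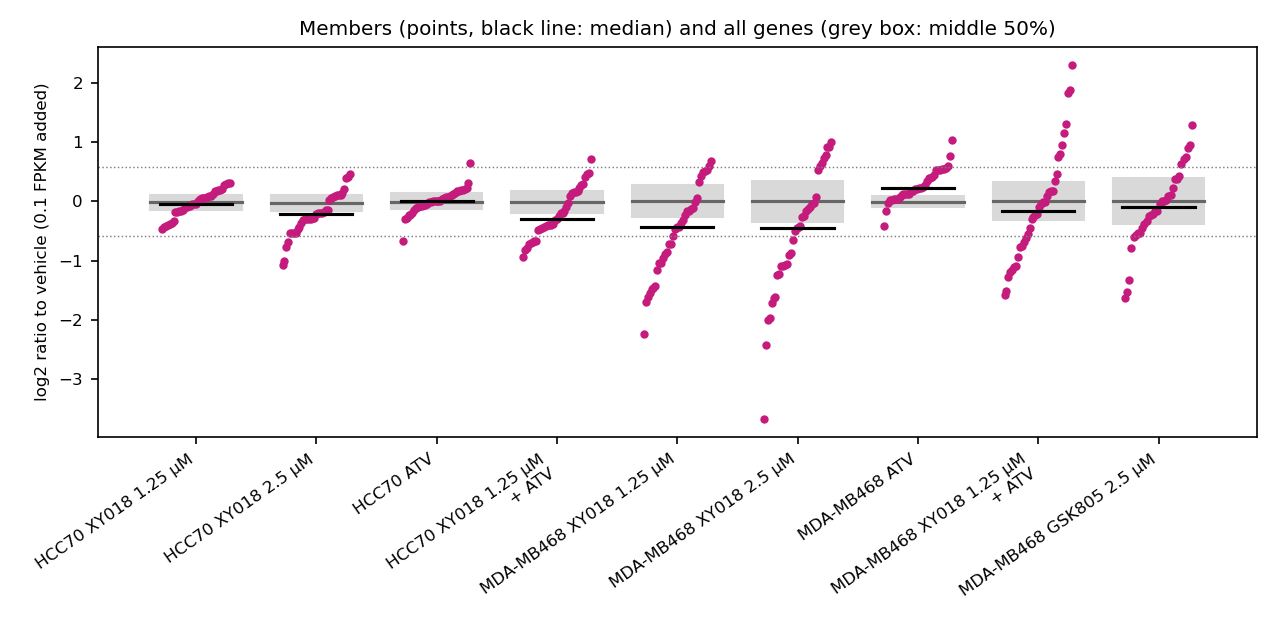
Log2 ratio to vehicle of the members compared (points, sorted, black line at their median) beside the middle 50% of all genes compared (grey box, line at the median) in the 9 treated libraries. Dotted lines mark 1.5-fold. The members extend in both directions beyond the box in all 9 treated libraries.

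Members of the OAS family went opposite ways. OAS1, OAS2 and OAS3 make the 2-5A messenger that activates RNase L, whereas OASL lacks that activity and works with DDX58. OAS1, OAS3 and OAS2 lie side by side on the + strand of chromosome 12 (chr12:113343661-113449528, GRCh37), and OASL lies apart on the - strand (chr12:121455566-121477049). OAS3 stood at 10.5 FPKM with vehicle, 3.73 and 3.12 FPKM with XY018 at 1.25 and 2.5 μM, 11.9 FPKM with ATV and 4.54 FPKM with both. All 3 libraries with XY018 were below both libraries without it, and the log2 ratio at 2.5 μM was -1.71 (interval -1.92 to -1.58). OAS1 went from 13.5 FPKM to 6.89 and 6.35 FPKM, with 17.9 FPKM for ATV and 8.30 FPKM for both. OAS2, the least abundant, went from 1.93 FPKM to 0.56 and 0.28 FPKM, with 2.88 FPKM for ATV and 0.74 FPKM for both. OASL instead stood at 2.95 FPKM with vehicle, 4.8 and 5.64 FPKM with XY018, 4.38 FPKM with ATV and 15.0 FPKM with both. OASL was thus highest where both compounds were given, with a log2 ratio of 2.31 (interval 2.12 to 2.58), a 5.09-fold difference on an estimated 188 and 932 fragments.

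The IFIT proteins bind viral RNA and curb its translation. IFIT2 stood at 2.18 FPKM with vehicle, 3.35 and 4.46 FPKM with XY018, 3.77 FPKM with ATV and 7.98 FPKM with both, so every treated library was above the vehicle. Its log2 ratio was 1.00 at 2.5 μM (interval 0.74 to 1.34) and 1.83 with both compounds. IFIT3 stayed between 5.24 and 5.86 FPKM with vehicle or XY018, and reached 7.15 FPKM with ATV and 11.5 FPKM with both. IFIT1 stayed low, between 1.38 and 2.58 FPKM, and past 1.5-fold in none of the 4 treated libraries against vehicle. The IFIT genes are similar in sequence, and reads that fit more than one of them could have been divided by the quantification.

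Most of the other antiviral effectors were lower with XY018. MX1 went from 40.3 FPKM with vehicle to 15.0 and 12.9 FPKM with XY018, with 53.1 FPKM for ATV and 18.6 FPKM for both. The 3 XY018 libraries stood below the others, and the log2 ratio at 2.5 μM was -1.63 (interval -1.77 to -1.51) on an estimated 2173 and 634 fragments. BST2 went from 68.4 FPKM to 30.7 and 28.9 FPKM, with 79.2 FPKM for ATV and 32.1 FPKM for both. GBP1, a guanylate-binding GTPase that interferon-γ also induces, went from 8.93 FPKM to 3.13 and 2.86 FPKM, and was also below vehicle with ATV (6.71 FPKM) and with both (3.08 FPKM). TRIM22, SAMD9 and SAMD9L were between -0.91 and -1.09 on the log2 scale at 2.5 μM. RSAD2 (viperin), which makes a chain-terminating nucleotide, departed from them. It was at 0.89 FPKM with vehicle, 0.90 and 1.33 FPKM with XY018, 1.22 FPKM with ATV and 3.54 FPKM with both, the last a 3.98-fold difference on 59 and 229 fragments. CMPK2, its neighbour on chromosome 2, stayed under 1 FPKM in all 5 libraries, at 0.81 FPKM with vehicle, 0.30 and 0.28 FPKM with XY018 and 0.90 FPKM with both.

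IFI6, IFI44L, IFI44 and IFI35 were lower with XY018 alone as well. IFI6, which guards mitochondria against apoptosis, went from 16.7 FPKM with vehicle to 5.62 and 4.07 FPKM with XY018, with 24.6 FPKM for ATV and 7.42 FPKM for both. The log2 ratio at 2.5 μM was -2.01 (interval -2.48 to -1.61). IFI44L went from 1.04 FPKM to 0.25 and 0.19 FPKM, with 2.25 FPKM for ATV and 0.68 FPKM for both, whereas IFI44 went from 7.98 FPKM to 4.81 and 4.31 FPKM and was near vehicle with both, at 7.74 FPKM. IFI35 went from 11.8 FPKM to 7.17 and 5.00 FPKM, with 10.5 FPKM for ATV and 6.94 FPKM for both. IFI27 was barely present, at 1.18 FPKM with vehicle (an estimated 16 fragments), 0.17 FPKM at 1.25 μM and listed at 0 at 2.5 μM, so no fold is given. XAF1 stayed between 0.98 and 1.37 FPKM.

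Of the 4 transcription factors, 3 were higher at 2.5 μM XY018 and 1 was lower, where 14.1% and 14.5% of all genes were. IRF1, which activates both interferon and inflammatory genes, stood at 14.3 FPKM with vehicle, 20.7 and 27.1 FPKM with XY018, 14.7 FPKM with ATV and 35.8 FPKM with both. Its log2 ratio was 0.53 at 1.25 μM, 0.91 at 2.5 μM (interval 0.81 to 1.03) and 1.32 with both. IRF7, which drives interferon-α genes, went from 20.9 FPKM to 29.5 and 35.9 FPKM, with 24.8 FPKM for ATV and 35.3 FPKM for both. STAT2 went from 7.49 FPKM to 10.8 and 11.8 FPKM, with 7.70 FPKM for ATV and 9.55 FPKM for both. IRF9, its partner in the ISRE-binding complex, moved the other way, from 23.4 FPKM to 12.9 and 14.9 FPKM, and was at 26.6 FPKM with ATV and 17.2 FPKM with both. Of the RNA sensors, IFIH1 went from 8.29 FPKM to 11.1 and 12.6 FPKM, with 14.5 FPKM for both, whereas DDX58 (2.68 to 3.41 FPKM) and DDX60 (1.73 to 2.46 FPKM) stayed within 1.5-fold of vehicle.

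Most genes of the ISG15 conjugation system stayed near vehicle. ISG15 stood between 40.2 and 46.4 FPKM in the 5 libraries, its conjugating enzyme UBE2L6 between 85.3 and 104 FPKM and its deconjugating enzyme USP18, which also blocks the interferon receptor, between 9.96 and 11.7 FPKM. USP18 has a near copy, USP41, so its level is uncertain. The ligase HERC5 was the exception, at 1.73 FPKM with vehicle, 2.19 and 2.95 FPKM with XY018, 2.68 FPKM with ATV and 4.0 FPKM with both. HERC6 stayed between 1.15 and 2.37 FPKM. Among the ADP-ribosyltransferases, PARP9 went from 9.97 FPKM to 5.33 and 4.73 FPKM, with 10.8 FPKM for ATV and 5.13 FPKM for both, whereas its partner DTX3L (12.9 FPKM to 9.30 and 9.10 FPKM), PARP12 (9.83 FPKM to 8.76 and 8.97 FPKM) and PARP14 (12.5 FPKM to 9.69 and 9.23 FPKM) stayed within 1.5-fold. In HCC70 PARP12 lay between 18.9 and 23.2 FPKM and PARP14 between 21.0 and 27.7 FPKM.

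**Figure D4:**
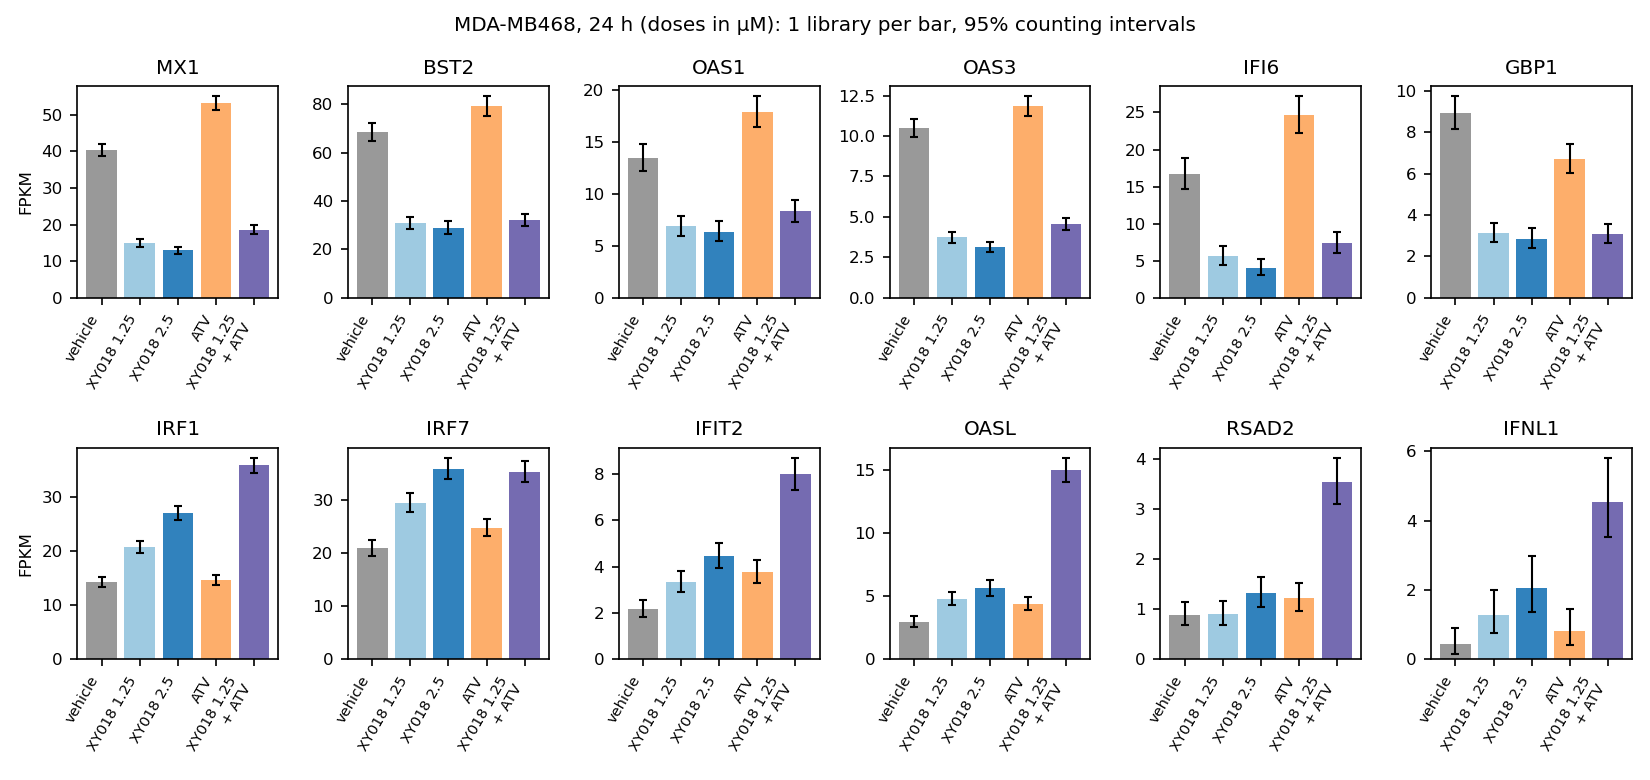
FPKM in the 5 MDA-MB468 libraries of the XY018 and ATV experiment, 1 library per bar, with exact Poisson 95% intervals for counting error. The top row holds members that were lower in every library with XY018, and the bottom row holds members that were highest or nearly so with XY018 plus ATV, and the interferon ligand IFNL1.

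Between the XY018 doses in MDA-MB468, no member of 31 passed 1.5-fold (median log2 ratio -0.02), with 1.73% of 11774 genes lower and 1.04% higher at the larger dose. IRF1 differed by 0.39, IFIT2 by 0.40 and IFI6 by -0.46 on the log2 scale between the doses.

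With ATV alone most members stood slightly above vehicle in MDA-MB468. The log2 ratio was above 0 in 33 of 36 members, with a median of 0.22. Over all 11710 genes the median was -0.01, with 52.2% below 0. IFI44L, IFIT2 and HERC5 were higher and none lower, where 1.37% and 0.803% of all genes were. MX1 differed by 0.40 and IFI6 by 0.56. GBP1 was the lowest, at -0.41.

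With XY018 and ATV together, 12 of 36 members were lower than with vehicle and 8 higher (median -0.16), against 12.2% and 13.1% of 11906 genes. Against XY018 alone at 1.25 μM, the combination had 9 of 33 members higher and none lower, with a median of 0.31. Over all 11792 genes 2.1% were higher and 1.76% lower, with a median of -0.02. The 9 were RSAD2 (1.86), OASL (1.63), IFIT2 (1.23), IFIT3 (1.12), HERC5 (0.84), IRF1 (0.79), IFIT1 (0.78), IFI44 (0.68) and HERC6 (0.60), given as log2 ratios. The OAS1, OAS3, MX1 and IFI6 levels changed by 0.27 to 0.39 in this comparison and remained below vehicle, whereas BST2 and GBP1 changed by 0.06 and -0.02.

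In HCC70 fewer members passed 1.5-fold than in MDA-MB468 with XY018, alone or with ATV. Log2 ratios were below 0 for 25 of 37 members at 2.5 μM XY018 and for 25 with both compounds, but for 19 at 1.25 μM and 16 with ATV. The shares of all genes below 0 were 54.6%, 51.9%, 52.6% and 50.9% in the same order, so the last 2 counts lay near them. At 1.25 μM XY018 none of 37 passed 1.5-fold (median -0.04), with 2.66% of 11738 genes lower and 1.93% higher. At 2.5 μM 4 were lower and none higher (median -0.21), against 3.26% and 2.62% of 11721 genes. OASL went from 12.7 FPKM with vehicle to 9.60 and 5.93 FPKM with XY018, with 11.4 FPKM for ATV and 7.85 FPKM for both, and its log2 ratio at 2.5 μM was -1.08 (interval -1.35 to -0.84). IFI44L went from 3.44 FPKM to 2.56 and 1.66 FPKM, RSAD2 from 2.39 FPKM to 1.75 and 1.36 FPKM, and HERC5 from 3.21 FPKM to 2.31 and 1.95 FPKM. Between the doses, OASL and IFI44L were lower at 2.5 μM and no member was higher, where 1.38% and 1.17% of 11684 genes were, and 30 of 37 members were below 0 (median -0.19), as were 52.3% of all genes.

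The abundant HCC70 members changed little. IFI27 stayed between 209.9 and 250.3 FPKM in the 5 libraries, BST2 between 181 and 236 FPKM, IFI6 between 87.0 and 113 FPKM and ISG15 between 81.4 and 106 FPKM. MX1 stood at 17.8 FPKM with vehicle, 17.2 and 15.8 FPKM with XY018, 18.0 FPKM with ATV and 12.9 FPKM with both. IRF1 went from 22.0 FPKM to 27.3 and 29.4 FPKM, within 1.5-fold.

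ATV alone in HCC70 left the median at 0.01, with IRF7 higher and HERC5 lower, where 2.22% and 1.32% of 11742 genes were. With both compounds 8 of 37 members were lower and 1 higher (median -0.30), against 2.94% and 4.39% of 11792 genes. The 8 were GBP1, IFI44L, HERC5, DDX58, IFI44, OASL, IFIT2 and RSAD2, with log2 ratios from -0.94 to -0.67, and IFI35 was higher at 0.72. Against XY018 alone, GBP1 (-1.15) and TRIM22 (-0.69) were lower with both and no member higher, where 1.96% and 3.75% of 11775 genes were.

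The direction of change was set side by side in the lines. Of 36 members compared in both at 2.5 μM XY018, 17 had log2 ratios below 0 in both lines, 2 above 0 in both and 17 opposite signs. Over the 10856 genes compared in both, these shares were 29.2%, 24.5% and 45.7%. Only IFI44L was at least 1.5-fold lower in both lines, and OASL and HERC5 were lower in HCC70 and higher in MDA-MB468, where 0.875% of those genes were lower in both and 0.783% passed 1.5-fold in opposite directions. With both compounds IFIT2, OASL, HERC5, RSAD2 and IFI35 passed 1.5-fold in opposite directions in the lines, and only GBP1 was lower in both, where 0.67% and 1.02% of 10895 genes were. The difference between the lines was not tested, since each condition has 1 library.

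With GSK805 in MDA-MB468 the members were spread around 0. Of 32 members compared (OAS2, OASL, RSAD2, CMPK2, XAF1 and EPSTI1 were under 1 FPKM in both libraries), 6 were higher and 5 lower (median -0.10), against 17.6% and 16.6% of 19951 genes in that wider table, or 13.5% and 12.6% of the 12059 that the XY018 table also lists. The members higher were IFI44L (0.704 to 1.86 FPKM), TRIM22 (9.85 to 19.2 FPKM), IRF7 (19.1 to 35.6 FPKM), SAMD9 (3.31 to 5.66 FPKM), DTX3L (8.95 to 14.8 FPKM) and IFIT2 (1.85 to 2.93 FPKM). Those lower were IFI35 (16.6 to 5.32 FPKM), HERC5 (2.20 to 0.693 FPKM), ISG15 (57.6 to 33.4 FPKM), SAMD9L (3.23 to 2.09 FPKM) and IFI27 (1.13 to 0.392 FPKM). IFI27 rested on an estimated 5 and 2 fragments, and its interval spans 0. Against the vehicle of the XY018 and ATV experiment, a comparison across tables, 11 of 35 members were lower and 8 higher, where 9.41% and 49.7% of 12039 genes were.

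Of the 16 members that were lower with XY018 at 2.5 μM in MDA-MB468, 15 were compared with GSK805 (OAS2 was not). With GSK805 9 of the 15 were within 1.5-fold of vehicle, 3 were lower and 3 higher. Of the 12059 genes also listed with XY018, 12.6% were lower and 13.5% higher with GSK805. The 15 were picked by their values with XY018, so these counts are a description, with no test. IFI35 stood further from vehicle with GSK805 (-1.63) than with XY018 (-1.22). MX1 went from 24.9 to 17.1 FPKM, BST2 from 62.2 to 47.5 FPKM and IFI6 from 7.23 to 4.96 FPKM, all within 1.5-fold, and OAS1 (15.8 to 17.0 FPKM), OAS3 (5.23 to 6.83 FPKM) and IRF1 (34.6 to 33.7 FPKM) were also within it. At 2.5 μM of each antagonist, 14 of 32 members were below 0 with both, 3 above 0 with both and 15 of opposite sign, where 32.6%, 31.4% and 35.9% of 11322 genes were. SAMD9L, IFI27 and IFI35 were lower with both and IRF7 and IFIT2 higher with both. HERC5, TRIM22, SAMD9 and IFI44L passed 1.5-fold in opposite directions. Of those genes 5.01% were lower with both, 4.08% higher with both and 1.46% past 1.5-fold in opposite directions. The compounds were tested in separate experiments with separate vehicles and tables, so compound and experiment cannot be told apart.

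**Figure D5:**
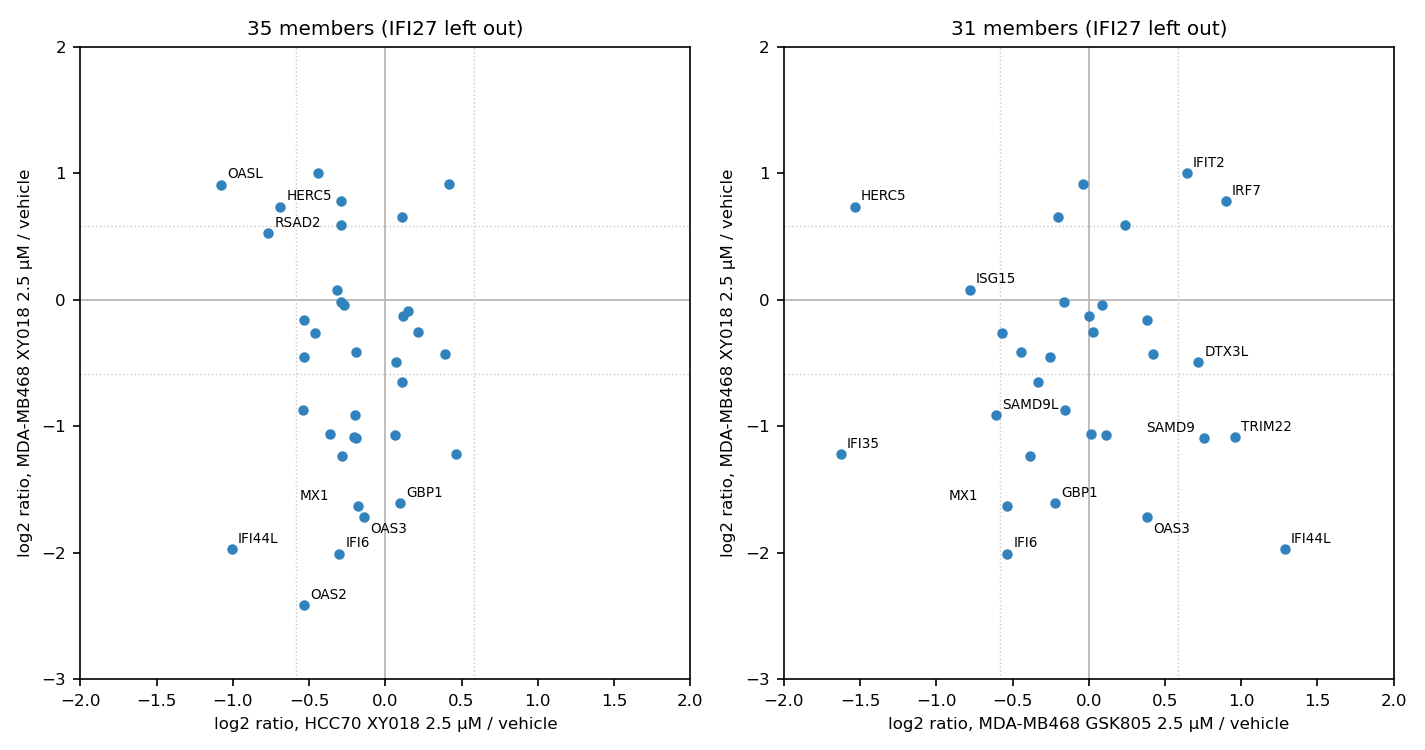
Log2 ratio with XY018 at 2.5 μM in MDA-MB468 (vertical axes) against XY018 at 2.5 μM in HCC70 (left) and GSK805 at 2.5 μM in MDA-MB468 (right), 1 point per member, dotted lines at 1.5-fold. IFI27 is left out because it is listed at 0 in 1 of the libraries. Points lie in all quadrants, with OASL and HERC5 at upper left in the left panel and IFI44L, TRIM22 and SAMD9 at lower right in the right panel.

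No interferon ligand reached 1 FPKM in a vehicle library, and only IFNL1 and IFNL3 did so with treatment, both in MDA-MB468. There the type III ligand IFNL1 stood at 0.44 FPKM with vehicle and at 1.27 and 2.05 FPKM with XY018. It was at 0.81 FPKM with ATV and 4.55 FPKM with both. OASL, RSAD2 and IFIT2 were also highest with both. Of the 36 members compared with vehicle in that library, 8 were higher and 12 lower, where 13.1% and 12.2% of all genes were. A link between IFNL1 and the members was not tested. IFNL3 went from 0 to 1.11 FPKM with both and IFNL2 from 0.30 to 0.80 FPKM, and these are near copies of each other, so their levels are uncertain. IFNB1 and IFNA1 stayed at 0.25 FPKM or below in all 12 libraries, and IFNE reached 0.78 FPKM at most. In the GSK805 experiment IFNL1 was listed at 0 with vehicle and 0.18 FPKM with GSK805, and in HCC70 it was at 0.13 FPKM or below. IFNA2, IFNK and IFNG were listed only in the GSK805 table, at 0 in both libraries.

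Over the 71 genes of the wider pathway lists, 13 of 56 compared were lower and 5 higher in MDA-MB468 with XY018 at 2.5 μM, where 14.5% and 14.1% of all genes were. The counts were 1 lower and none higher of 57 in HCC70 at the same dose, where 3.26% and 2.62% of all genes were. With GSK805 they were 3 lower and 4 higher of 54, where 16.6% and 17.6% of all genes were. IFNAR1 went from 12.3 FPKM to 10.0 and 9.74 FPKM and IFNAR2 from 16.4 FPKM to 11.3 and 8.41 FPKM with XY018 in MDA-MB468, whereas in HCC70 IFNAR1 stayed between 13.3 and 15.3 FPKM and IFNAR2 between 12.8 and 15.2 FPKM. The interferon-γ receptor chain IFNGR1 was the receptor that passed 1.5-fold in HCC70, from 92.2 FPKM with vehicle to 59.9 and 52.4 FPKM with XY018 and 50.2 FPKM with both, and it went from 88.5 to 51.8 FPKM at 2.5 μM in MDA-MB468. IRF3, the factor that DDX58 and IFIH1 signal to, was between 63.0 and 76.7 FPKM in MDA-MB468 and between 54.1 and 67.8 FPKM in HCC70.

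Of the kinases, JAK2 had the largest change, from 2.21 to 6.25 FPKM with GSK805. The sensor TLR3 went from 1.79 to 0.82 FPKM and the feedback inhibitor SOCS3 from 5.52 to 2.28 FPKM with XY018 at 2.5 μM in MDA-MB468. Of 28 other interferon-stimulated genes compared there, 8 were lower and 2 higher, beside the same 14.5% and 14.1% of all genes. The largest change was IFITM2, a membrane protein that blocks viral entry, from 9.40 FPKM to 2.31 and 1.31 FPKM. Its neighbours IFITM1 (86.9 FPKM to 30.7 and 22.2 FPKM) and IFITM3 (644 FPKM to 279 and 221 FPKM) were lower too, and all of them are similar enough in sequence that reads may be shared. With GSK805 they stayed within 1.5-fold. Of the interferon-γ responsive genes, CIITA had the largest change, from 0.44 to 2.25 FPKM with GSK805, and CXCL9 was listed at 0 in all 12 libraries.

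The labelled cell type and the overall scale were checked in the same libraries. The epithelial markers EPCAM (58.8 to 153 FPKM) and KRT18 (209.5 to 652 FPKM) were high throughout, PTPRC was at 1.06 FPKM or below, and CD3E and VWF were at or near 0. The immune list as a whole moved through CD14 and CD68. CD14 was its most abundant gene in HCC70, at 170.0 FPKM with vehicle and 419 FPKM at 2.5 μM XY018, and CD68 went from 4.42 to 16.4 FPKM in MDA-MB468. Of 4 genes of the list compared in MDA-MB468 at 2.5 μM, 2 were higher and 1 lower, where 14.1% and 14.5% of all genes were. The summed level of the list went from 255 to 516 FPKM in HCC70 and from 24.6 to 27.2 FPKM in MDA-MB468. In the latter it was 23.2 FPKM at 1.25 μM. With GSK805 it went from 99.3 to 65.0 FPKM, with CD14 at 93.7 and 51.8 FPKM and CD68 at 5.54 and 12.4 FPKM. The fibroblast and endothelial list summed to 5.43 and 8.37 FPKM in MDA-MB468, nearly all of it COL1A1. Among the epithelial markers, KRT5 went from 112 to 40.3 FPKM and KRT8 from 918 to 468 FPKM with XY018 at 2.5 μM in MDA-MB468. In that comparison 3 of 6 were lower, where 14.5% of all genes were. In HCC70 2 of 6 were lower at that dose, where 3.26% of all genes were, and the summed level of the list went from 1836 to 1378 FPKM. With XY018 plus ATV in HCC70 the sum was 1134 FPKM and 2 of 6 were lower, where 2.94% of all genes were. With GSK805 3 of 6 were lower, where 16.6% of all genes were, and the sum went from 2284 to 1337 FPKM. ESR1 was under 1 FPKM in the XY018 and ATV experiments and went from 1.77 to 5.67 FPKM with GSK805.

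Of 6 reference genes, 3 were lower and none higher in MDA-MB468 with XY018 at 2.5 μM, where 14.5% and 14.1% of all genes were. The median log2 ratio of the 6 was -0.49. ACTB went from 3718 FPKM with vehicle to 1175 and 751 FPKM with XY018, and from 5485 to 1410.2 FPKM with GSK805. PPIA went from 706 to 358 FPKM and HPRT1 from 25.5 to 15.0 FPKM with XY018 at 2.5 μM, whereas GAPDH went from 2533 to 2176 FPKM, TBP from 9.00 to 10.3 FPKM and RPLP0 from 1165 to 1373 FPKM. None of the 6 was past 1.5-fold in HCC70 at that dose. With XY018 plus ATV in HCC70, 1 of the 6 was lower, where 2.94% of all genes were. The median of all genes compared stayed within 0.03 of 0 in every comparison with a vehicle of the same experiment. The part of these shifts in the members' values was not tested.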

How the data were processed

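Libraries were made with the TruSeq RNA kit from 12 cultures and sequenced on an Illumina HiSeq. Per the submitters' notes and methods, reads were mapped to GRCh37/hg19 with BWA and Bowtie and quantified with Cufflinks, with versions and strand setting not given in the sources used here. Values in the 3 deposited tables are in FPKM, and each table was normalized separately by the authors. The file headers name no unit, and FPKM was taken from the methods and the values.

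For a symbol with several entries the one with the highest mean was kept. Log2 ratios used a pseudocount of 0.1 FPKM, leaving out genes below 1 FPKM in both libraries, with calls at 1.5-fold. No condition has a replicate, so no test was run. Depth was estimated from the spacing of low FPKM values, which gave 8980000 to 10000000 fragments for HCC70, 17900000 to 19900000 for the 5 other XY018 and ATV libraries, and 8350000 and 8620000 for the GSK805 pair. The length offset in this estimate ran from 0 to 200 nt, so fragments are approximate. The depth and ratio calculations were tested on simulated data.

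The members, gene lists and comparisons were chosen with earlier results of these data known. All 38 members are accounted for. Those past 1.5-fold in at least 2 of the 9 vehicle comparisons, or at 10 FPKM or above in a vehicle library, were to be named with values, together with IRF3, IFNAR1, IFNAR2, the interferon ligands and the gene of each other list with the largest change at 2.5 μM. Some genes of these lists are not reported here. Alternatives were pseudocounts of 1 and 0.01, no filter or a filter at 5 FPKM, centring, a 2-fold threshold, summed entries and, for GSK805, the other vehicle. The share of all genes called with GSK805 was also taken over the genes of the XY018 table, chosen after seeing the data. The software was scipy 1.17.1, pandas 2.3.3 and numpy 2.4.6 under Python 3.11.15, with figures from matplotlib 3.10.9.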

Additional observations from a re-analysis of the deposited data

Results flagged for a closer look

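Members that passed 1.5-fold in opposite directions were picked out where the same treatment was compared between the lines, or XY018 and GSK805 at 2.5 μM within MDA-MB468. None of these differences was tested, because each condition has 1 library. OASL was below vehicle in all 3 HCC70 libraries with XY018 and above vehicle in all 3 of MDA-MB468. It passed 1.5-fold in opposite directions at 2.5 μM, with log2 ratios at 2.5 μM of -1.08 and 0.91, a difference of 1.99. HERC5 had the same signs in these libraries, with ratios at 2.5 μM of -0.69 and 0.74, a difference of 1.43. In MDA-MB468, HERC5 was also higher with XY018 (0.74) and lower with GSK805 (-1.54) at 2.5 μM, a difference of -2.27 on an estimated 61 and 20 fragments in the GSK805 experiment. The reverse held for IFI44L (-1.97 with XY018 and 1.29 with GSK805, a difference of 3.26), TRIM22 (-1.08 and 0.96, a difference of 2.04) and SAMD9 (-1.09 and 0.76, a difference of 1.85). IFI44L stood at about 1 FPKM or below in both MDA-MB468 vehicles, at 1.04 and 0.704 FPKM. With XY018 plus ATV, OASL stood at -0.68 in HCC70 and 2.31 in MDA-MB468, a difference of 2.99. In the same comparison IFIT2 differed by 2.50 (-0.68 and 1.83), RSAD2 by 2.55 (-0.67 and 1.88) and HERC5 by 1.96 (-0.79 and 1.16). IFI35 had the opposite signs there, at 0.72 in HCC70 and -0.76 in MDA-MB468, a difference of -1.47. With ATV alone HERC5 stood at -0.67 in HCC70 and 0.60 in MDA-MB468, a difference of 1.27. The share of all genes past 1.5-fold in opposite directions with ATV was not taken. With a pseudocount of 1 FPKM, HERC5 was within 1.5-fold of vehicle in HCC70 with ATV.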

How the results depend on the processing

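Over the alternatives run, the median log2 ratio of the members ranged in MDA-MB468 from -0.59 to -0.33 with XY018 at 1.25 μM, from -0.49 to -0.35 at 2.5 μM, from 0.15 to 0.23 with ATV and from -0.22 to -0.07 with both, and with GSK805 from -0.17 to 0.00. In HCC70 it ranged from -0.05 to 0.05 with XY018 at 1.25 μM, from -0.24 to -0.18 at 2.5 μM and from -0.31 to -0.18 with both. The counts of members past the fold depended on the settings. Shares of all genes were taken only at 1.5-fold with the main filter and pseudocount, so counts at other settings are a description. At a 2-fold threshold XY018 left 2 members lower in HCC70 at 2.5 μM. In MDA-MB468 it left 10 lower and 0 higher at 1.25 μM. At 2.5 μM it left 13 lower and 1 higher (IFIT2, at exactly that fold) in that line. At that threshold ATV left 0 higher and 0 lower in HCC70 and 1 higher in MDA-MB468, and the combination left 0 higher and 0 lower in HCC70 and 5 higher and 7 lower in MDA-MB468. GSK805 left 1 higher and 3 lower. Between doses in HCC70 0 were lower, and against XY018 alone the combination had 1 lower in HCC70 and 4 higher in MDA-MB468. With a filter at 5 FPKM the counts were 1 lower for XY018 at 2.5 μM, 0 lower for ATV and 5 lower for the combination in HCC70, 0 higher for XY018 at 1.25 μM and 0 higher for ATV in MDA-MB468, and 2 lower for GSK805. Under the same filter 1 was lower between doses and 1 lower for the combination against XY018 in HCC70, and 5 were higher for the latter in MDA-MB468. With a pseudocount of 1 FPKM there were 2 lower for XY018 at 2.5 μM, 0 higher and 0 lower for ATV, 1 lower between doses and 1 lower for the combination against XY018 in HCC70, and 0 higher for XY018 at 1.25 μM in MDA-MB468. Without a filter, ATV in HCC70 had 2 higher, and 2 members were lower at the larger XY018 dose in MDA-MB468. Against the other MDA-MB468 vehicle, GSK805 had 11 lower. Of 90 member ratios past 1.5-fold against vehicle, 21 moved outside their own counting interval with a pseudocount of 1 FPKM and none with 0.01 FPKM or with centring, and none changed sign under these settings.

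No paired analysis was possible because each condition has 1 library. Estimated depth was lowest in the GSK805 pair, so members near 1 FPKM rest on few fragments there.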
